A study of Gallus gallus with 50 samples.

Results

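In chicken embryos at embryonic day 9, 200 gene IDs were examined that were on in some motor neurons and off in others within each of 2 motor pools. A motor pool is the set of spinal motor neurons that sends its axons to 1 muscle. Cells were taken from the spinal cord after a tracer had travelled back along the axons from 1 muscle, labelled EMR or FDQ in the series (neither name is spelled out there). They were dissociated with papain, picked singly, and sequenced by SMART-seq2, a method that copies and amplifies the polyadenylated transcripts of a single cell over their full length. EMR contributed 32 cells and FDQ 18. The labels give no treatment, and neither the embryo nor the sex behind any cell, so each muscle counted as 1 sample and no test was made between the muscles. For the same reason, variation between cells of 1 pool cannot be told apart from variation between embryos or sexes.

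The gene IDs were chosen from the measured counts. The cells entered if at least 5000 gene IDs had a count, which kept 16 EMR and 9 FDQ cells (25 of 50). Counts were scaled to a total of 1000000 per cell (CPM), and an ID was on at 5 CPM or more. Of 20392 IDs, 1949 were on in 30 to 70% of the cells of each muscle with shares under 20 percentage points apart. The 200 of these with the highest SD of log2(CPM + 1) around the mean of their muscle are the members, and the other 1749 serve as their background. The SD of the last members by rank was 2.705, 2.705 and 2.704, and that of the next IDs outside was 2.703, 2.702 and 2.702, so the border is not a natural one. The shares of cells and the SDs of the members follow from this choice and are given as description.

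Motor neurons of limb muscles are generated in columns and then sorted into pools. Pool identity is known from combinations of transcription factors and of surface molecules such as cadherins. Within a pool, neurons also differ in type, for example those that drive ordinary muscle fibres and those that set the tension of muscle spindles. A gene that varies within a pool can also reflect a state or origin of the cell, or a transcript missed when a small amount of RNA is amplified. The deposited table holds Ensembl gene IDs without names, and the name table at hand matched 0 of the 20392 IDs. Functions of the members, cell type markers and chromosomes were therefore not analysed here, and that the cells are motor neurons rests on the labels.

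In the kept cells, each EMR cell had 2022623 to 11014823 gene counts and 5009 to 11813 IDs with a count. Each FDQ cell had 4594353 to 8245621 gene counts and 7092 to 9997 IDs with a count. A further 20 cells had at least 1000 but under 5000 IDs with a count (14 EMR and 6 FDQ). These took no part in the choice of members and are called held-out cells below. The last 5 cells had fewer than 1000. The counts are PCR reads without molecular identifiers, so they are not counts of independent molecules. Intervals are given for shares of held-out cells and cover the sampling of cells taken as independent draws.

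Off values of the members were mostly 0 counts, and their on values mostly moderate levels. Each was on in 8 to 17 of the 25 cells, with a median of 14. Of 2305 off values, 1797 (78.0%) were 0 counts and 89.4% were under 1 CPM, where 1 count was worth 0.0908 to 0.494 CPM depending on the cell. The 2695 on values had a median of 53.6 CPM, with quartiles of 27.02 and 101.2 CPM. A level of 5 to 20 CPM was found in 17.7% of them and 100 CPM or more in 25.5%. For 67 of the 200 members (33.5%) the lowest on cell was at least 10 times the highest off cell, against 9.66% of the background IDs, and the other 133 had a narrower gap between states. In the background IDs, 69.3% of the off values were 0 counts, and the median on value was 23.2 CPM. The ranking by SD favours high on values and wide gaps, so these differences are part of the choice of members and nothing is read from them.

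**Figure D1:**
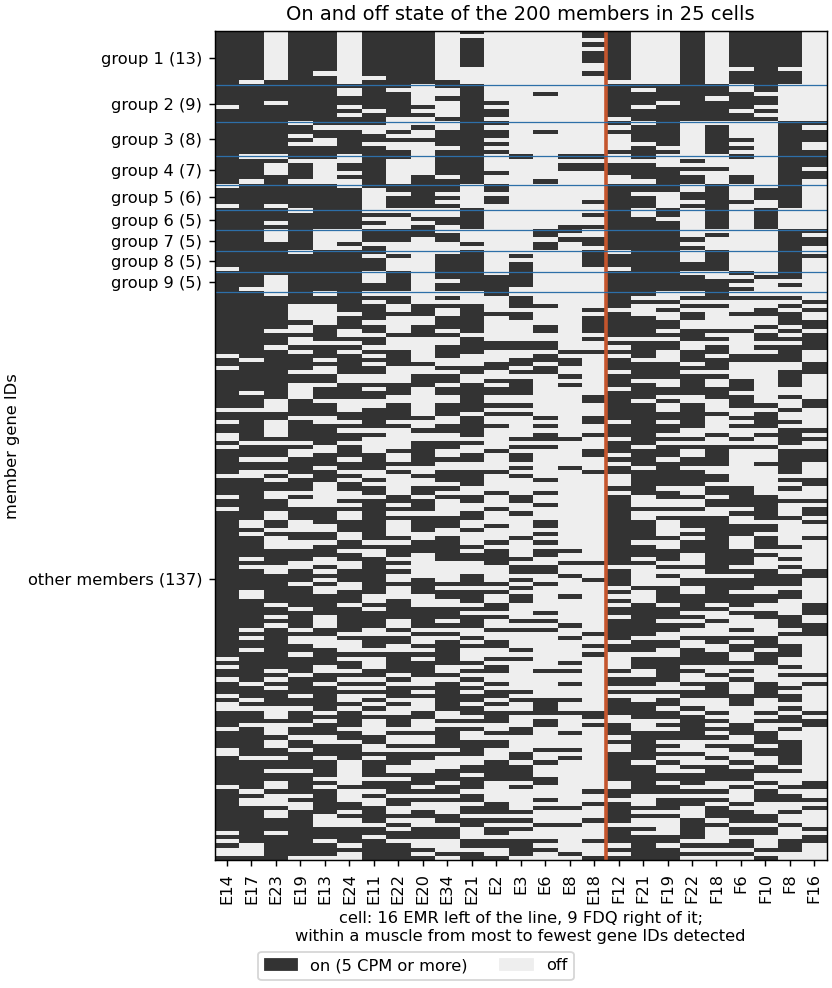
On state (dark, 5 CPM or more) and off state (pale) of the 200 members (rows) in the 16 EMR cells (left) and 9 FDQ cells (right), each ordered from most to fewest gene IDs detected. Rows are sorted by correlated group, with the number of members in brackets. The 13 members of group 1 form solid blocks that are all or mostly on in some cells and off in others, while the 137 members outside the 9 groups give a mottled pattern that thins toward cells with few gene IDs.

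The cells differed widely in how many members they had on. EMR cells had 30 to 172 of the 200 members on, with a median of 112.5, and FDQ cells had 59 to 149, with a median of 116. The lowest were E8 with 30, E18 with 47 and E6 with 52, and the highest were E14 with 172 and E17 with 168. The ranges of the muscles overlapped over the whole range of FDQ. The number on followed the number of IDs detected in the cell. Pearson's r was 0.922 and Spearman's rho 0.874 over 25 cells, with r of 0.944 in 16 EMR cells and 0.889 in 9 FDQ cells. Both numbers come from the same libraries, so this r is given as a description, and what lies behind it was not tested. The same r is not given for the background IDs, so nothing particular to the members is read from it. After thinning each cell to 200000 counts, the medians were 113.5 in EMR and 118 in FDQ, and r was 0.896.

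**Figure D2:**
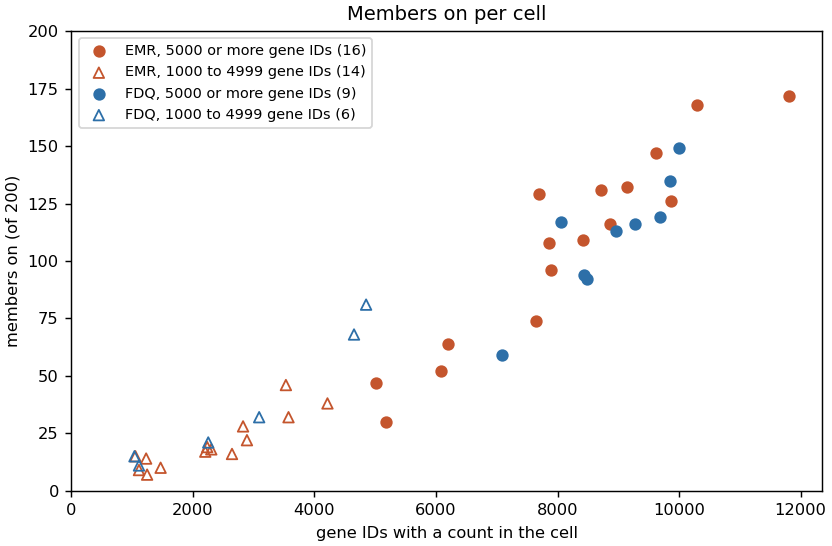
Members on per cell (of 200) against the number of gene IDs with a count, for EMR and FDQ cells that met the limit of 5000 gene IDs (filled circles) and for held-out cells with at least 1000 but fewer than 5000 (open triangles). The number on climbs with detection in both muscles, and the held-out FDQ cells F24 and F5 have 81 and 68 members on.

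The level of each member, with the mean of its muscle removed, was also set beside detection. The number on is a sum over members without that removal, so the values below are not compared with its r. The correlation of a member's level with the number of IDs detected had a median of 0.32 over the 200 members (quartiles 0.21 and 0.46), against 0.29 over the 1749 background IDs. It reached 0.5 in 33 members (16.5%), against 12.5% of the background IDs, and was below 0 in 7 members.

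Most pairs of members were on in different sets of cells. Over 19900 pairs, r of log2(CPM + 1) with the mean of the muscle removed had a median of 0.13, with quartiles of −0.03 and 0.29. Over the pairs of background IDs the median was 0.08, with quartiles of −0.07 and 0.23. An r of 0.5 or more was found in 5.10% of member pairs and in 2.54% of background pairs, and an r of 0.8 or more in 58 member pairs (0.291%) and in 0.00844% of background pairs. An r of −0.5 or below was less frequent in members, with 30 pairs (0.151%), against 0.271% of background pairs. The ranking by SD used the same values and favours high on values and wide gaps. Nothing is therefore read from these differences between member and background pairs. The 200 members had 193 distinct on-off patterns over the 25 cells, and 190 members had a pattern of their own. No pair was in opposite states in every cell, and every pair was on together in at least 1 cell. The same counts are not given for the background IDs, so nothing particular to the members is read from them.

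Part of the general positive correlation moved with detection. With a linear fit on the number of IDs detected taken out of each member, the median r was 0.03 and the share of pairs at 0.5 or more was 2.88%, against 0.002 and 1.31% over the background pairs. The limit given above for comparing members with background holds here too. The pairs with the highest r were little affected, as the plot of pair correlations shows.

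**Figure D3:**
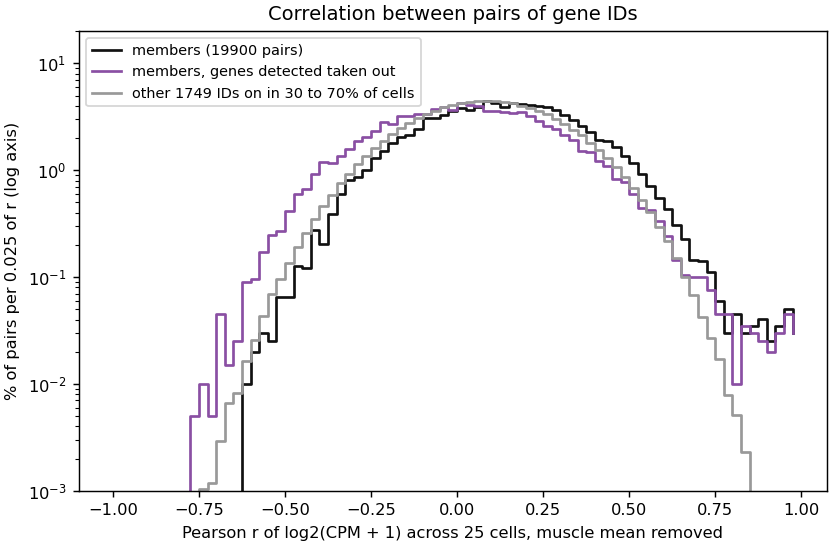
Distribution of Pearson's r between pairs of gene IDs over the 25 cells (x axis, in steps of 0.025; y axis, percent of pairs on a log axis that starts at 0.001) for members, members with the number of genes detected taken out, and the 1749 background IDs. Members have a shoulder from 0.8 to 1 that stays after the number of genes detected is taken out.

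Average linkage of the members, cut at a mean r of 0.5, gave 9 groups of 5 or more with 63 members in all. A further 106 members fell into groups of 2 to 4, and 31 stayed alone. The cut was set with earlier results of these data known, and the groups were chosen in the same 25 cells in which their correlations are given. Group 1 held most of the highest correlations. Of the 58 pairs at 0.8 or more, 51 lay within it, out of the 78 pairs it holds.

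Group 1 held 13 members that were mostly on in the same cells and off in the same cells. Its median r was 0.85, ranging from 0.52 to 0.996, and it was 0.82 in EMR cells alone and 0.96 in FDQ cells alone. At least 7 of the 13 were on in 14 cells (9 EMR and 5 FDQ), and at most 1 was on in the other 11 (7 EMR and 4 FDQ). All 13 were on in E14, E19, E20, E22, F10 and F22. The cells with fewest among the 14 were E18 with 7, which had 5009 IDs detected, and E21 with 8. In the 11 cells, 105 of 143 values were 0 counts, and 2 values reached 5 CPM, both from the member at rank 172, whose highest value there was 81.5 CPM. Cells with many and with few IDs detected were found on both sides: 5009 to 11813 IDs in the 14 cells and 5185 to 9861 in the 11. The correlation of the group's mean level with the number of IDs detected was 0.38, and the group's median r was 0.84 with that number taken out. Whether the 14 and the 11 cells differ in embryo or sex of origin was not tested, since the labels give neither.

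The first member by rank, ENSGALG00000035998, shows the pattern most plainly. In EMR cells its lowest, median and highest levels were 0, 861 and 1868 CPM, and in FDQ cells 0, 998 and 1518 CPM. The share of EMR cells with it on was 56.3% (9 of 16), and the share of FDQ cells was 55.6% (5 of 9). The rule admits only shares under 20 percentage points apart, so nothing is read from their closeness. No cell lay between the states: the lowest on cell was E18 with 602 CPM, and the highest off cell had 1.20 CPM. Of the 11 off cells, 8 had no count. Among the 14 on cells its log2 level had an SD of 0.40, against a median of 1.35 for the 187 members outside group 1.

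The other members of group 1 were lower. ENSGALG00000048286 had the highest mean r to the rest of the group (0.89) and, with ENSGALG00000035998, the highest r of any pair (0.996). In EMR it was on in 9 of 16 cells at 67.8 to 240.4 CPM, and in FDQ it was on in 5 of 9 cells at 156 to 227 CPM. Its highest off value was 1.06 CPM in EMR and 0.128 CPM in FDQ, so the on and off cells did not overlap in either muscle. Its level was 0.0645 to 0.179 of that of ENSGALG00000035998 in the same cells, a ratio that varied 2.77-fold. Whether overlapping or near-identical genes shared reads within the group was not tested. Across the 13 members, the median level in the 14 cells ranged from 29.5 to 1333 CPM. Summed over the group, its share of a cell's counts was 0.0933% to 0.299% in the 14 cells and 0.00820% or less in the 11. Its members stood at rank 1, 6, 7, 8, 15, 16, 18, 24, 30 and 48 by SD, and the last 3 at 150, 153 and 172.

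The 14 and 11 cells were divided by the on calls of group 1 itself, which favours its own members in what follows. The full on-off pattern was rare in the rest of the table. Among 11349 IDs on in at least 3 of the kept cells, 5 were on in all of the 14 cells and off in all of the 11, and all 5 belonged to group 1. Allowing differences in at most 2 cells gave 10 IDs, again all from group 1. The opposite pattern was found in 0 IDs, with or without that allowance. Outside the group, 3 IDs had an r of 0.8 or more with its mean level, and none of them met the rule for members. The closest, ENSGALG00000043758, was picked after its values were seen and had an r of 0.97. Its median was 248 CPM in the 14 cells, with a lowest value of 87.9, against a median of 3.81 and a highest value of 6.29 CPM in the 11. Its share of cells at 5 CPM or more was 62.5% in EMR and 88.9% in FDQ, since some of the 11 cells passed 5 CPM. The lowest r of any ID with the group was −0.75.

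The held-out cells offered a look at group 1 outside the cells that chose it. ENSGALG00000035998 was on in 9 of these 20 cells (45%, exact Clopper-Pearson 95% interval 23.1% to 68.5%), and the other 11 had 0 counts of it. The on values were 1022 and 1385 CPM in E10 and E9, 33.2 and 13.7 CPM in E15 and E16, and 1219 to 10061 CPM in F24, F11, F7, F5 and F23. The low values of E15 and E16 thus filled part of the gap that was empty in the kept cells. In the 9 cells, 1 to 7 of the other 12 group members were also on, and in the 11 cells 10 had none of them on and 1 had 1. The 9 cells had 1038 to 4850 IDs detected and the 11 had 1112 to 4214. By muscle, 28.6% of the held-out EMR cells had ENSGALG00000035998 on (4 of 14, interval 8.39% to 58.1%), and 83.3% of the held-out FDQ cells did (5 of 6, interval 35.9% to 99.6%). The intervals take cells as independent draws and leave out differences between embryos, so the muscles are not compared by them. All 5 cells with fewer than 1000 IDs had 0 counts of ENSGALG00000035998. Of these, F9 (757 IDs) had 1 other member of group 1 on, with 3848 CPM summed over the group.

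**Figure D4:**
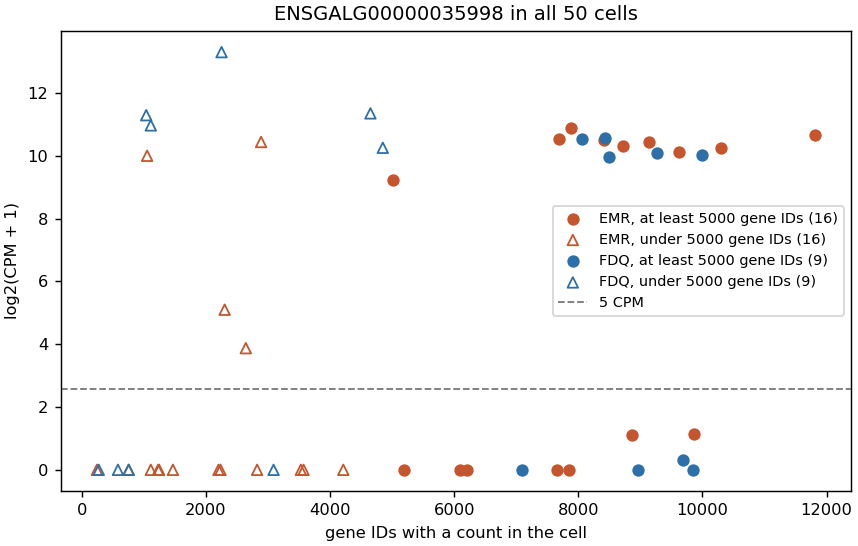
Level of ENSGALG00000035998 as log2(CPM + 1) in all 50 cells against the number of gene IDs detected, by muscle, with filled circles for the 25 cells that chose the members. In those cells 14 points lie above 9 and 11 lie below 2, and the plot shows E15 and E16 as the 2 open EMR triangles between the line at 5 CPM and the kept on cells.

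In the same 20 held-out cells, 12 of the 13 members of group 1 could be correlated, and their 66 pairs had a median r of 0.38, ranging from −0.03 to 0.92. Over all 17205 member pairs with values there, the median was −0.01. Pairs outside group 1 that had reached 0.5 in the kept cells had a median of 0.02 over 853 pairs. The held-out cells had fewer members on, 7 to 46 per EMR cell with a median of 17.5 and 11 to 81 per FDQ cell with a median of 26.5. Depth also changes what on means there. In E10, with 45027 counts in all, 1 count passed 5 CPM, and all 15 members with a count were on. The median member was on in 10% of the held-out cells, and 27 members were on in 0 of them. How far this lower detection reduced the correlations was not tested.

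The remaining 8 groups held 5 to 9 members each and had lower correlations. Their median r ranged from 0.56 to 0.72 in the kept cells, against 0.85 in group 1. They had all members on in 4 to 9 cells, no member on in 1 to 7 cells, and some on in 10 to 20 cells. By the same counts group 1, which holds more members, had 6, 9 and 10 cells. Every group had cells of both muscles with all of its members on. In held-out cells their median r lay between −0.16 and 0.28. Group 3 had 0.28 and group 8 had 0.24, and the others were at 0.11 or below.

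**Figure D5:**
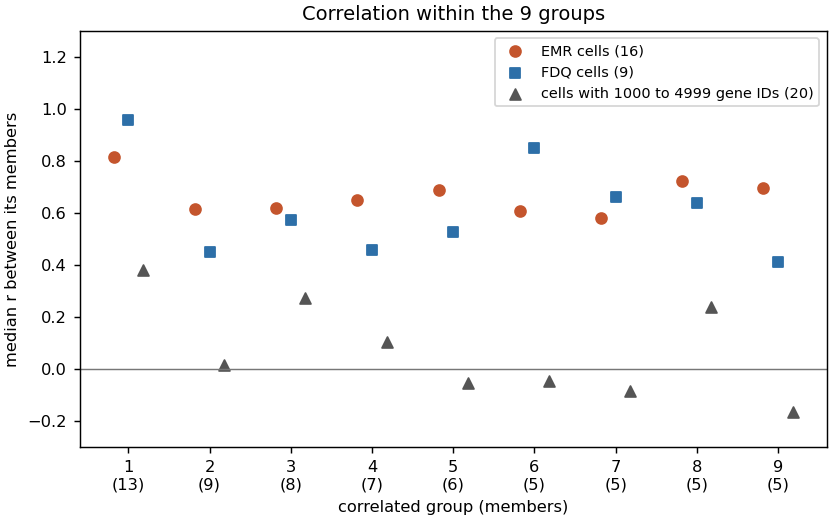
Median r between the members of each of the 9 groups (x axis, with the number of members) in EMR cells, in FDQ cells and in held-out cells. Group 1 is highest in EMR cells at 0.82, in FDQ cells at 0.96 and in held-out cells at 0.38. In held-out cells 4 of the 9 groups lie below 0.

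Group 2 moved most with detection. Its 9 members had a median r of 0.56 and a correlation of their mean level with the number of IDs detected of 0.78, and with that number taken out the median r was 0.32. All 9 were on in E13, E17, E19, E21 and F22. ENSGALG00000041641, with the highest mean r to the group, was on at 32.2 to 233 CPM in 10 of 16 EMR cells, and at 129 to 275 CPM in 6 of 9 FDQ cells. In held-out cells it was on in 3 of 20, at 9.69 to 57.9 CPM, and the group's median r there was 0.02.

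Among the kept cells, groups 2, 3, 4 and 9 were highest in the EMR cell E21. Group 2 reached 1279 CPM there and group 9 reached 914 CPM. All 8 members of group 3 were on in E14, E17, E21, E23 and F8, and their summed level had a median of 225 CPM over the kept cells and reached 3957 CPM in E21. All 7 members of group 4 were on in E11, E14, E21 and F8, with a median sum of 141 CPM and 8056 CPM in E21. Of that sum in E21, 5358 CPM came from 1 member, at rank 14. Higher sums occurred outside the kept cells, but with only part of the group on. Group 3 had 5521 CPM in the held-out cell E7, with 3 of its 8 members on. Group 4 had 23564 CPM in the held-out cell F5, with 5 of its 7 members on. Group 4 also had 20081 CPM in F20, which had 583 IDs detected and 1 member of the group on. Without E21 the median r fell to 0.50 in group 3, against 0.56 with it, and to 0.47 in group 4, against 0.56 with it. ENSGALG00000013971, with the highest mean r in group 3, was on at 6.92 to 724 CPM in 6 of 16 EMR cells, and at 8.86 to 114 CPM in 4 of 9 FDQ cells. It was on in 4 of 20 held-out cells, at 52.7 to 3175 CPM. What sets E21 apart among the kept cells was not tested, since markers of other cell types could not be matched to the IDs.

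On levels varied among cells to different degrees outside group 1, where the SD of the log2 level over on cells was at or below the highest value of group 1 (1.39) in 104 of 187 members. A wide spread was that of ENSGALG00000005140, at rank 2, which was on at 67.0 to 1366 CPM in 6 of 16 EMR cells, and at 30.3 to 141 CPM in 4 of 9 FDQ cells. In off cells it stayed at 0.960 CPM or below in EMR and at 1.92 CPM or below in FDQ, so it kept a wide gap between states but varied 20.4-fold among EMR on cells. It was on in 1 of 20 held-out cells, at 322 CPM.

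The strongest opposition between members was that of ENSGALG00000028627 and ENSGALG00000001933, with an r of −0.62. Of the 25 cells, 7 had the first on without the second, 11 the second without the first, 6 had both and 1 had neither. ENSGALG00000028627 was on in 8 EMR cells and 5 FDQ cells, with a highest level of 1345 CPM in EMR and 124 CPM in FDQ. ENSGALG00000001933 was on in 11 EMR cells and 6 FDQ cells, with a highest level of 165 CPM in EMR and 135 CPM in FDQ. The r was −0.53 in EMR cells and −0.82 in FDQ cells. The pair was picked as the lowest of 19900 values in these cells, so its r in each muscle is part of that choice. Over the pairs of background IDs, which are far more numerous, the lowest r was −0.83. In the held-out cells the r of the pair was 0.28. ENSGALG00000001933 was on in 0 of those 20 cells and had no count in 18, so that value cannot decide whether the opposition holds there.

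For member pairs other than those of group 1, r in EMR cells was only weakly related to r in FDQ cells. Across the member pairs, which share genes and are not independent, r between the value in EMR cells and the value in FDQ cells was 0.06, and 0.04 without the pairs of group 1. Outside group 1, the 2175 pairs at 0.5 or more in EMR cells had a median of 0.10 in FDQ cells, and the 2592 such pairs in FDQ cells had a median of 0.18 in EMR cells. Over all pairs the medians were 0.17 in EMR cells and 0.06 in FDQ cells. An r of 0.8 or more in both muscles was found for 41 pairs, of which 38 lay in group 1. Group 1 was formed on r over the cells of both muscles, so its agreement between them is part of that choice. The same holds for groups 2 to 9, whose median r was 0.58 to 0.72 in EMR cells and 0.41 to 0.85 in FDQ cells. With 16 and 9 cells a single pair's r is imprecise in either muscle, which pulls the r across pairs toward 0. The low value therefore cannot decide whether pairs outside group 1 differ between the muscles.

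Pairs of cells were described by the share of members in the same state. The share of the 200 members in the same state had a median of 48.5% over 120 pairs of EMR cells (range 23% to 75%) and 46.3% over 36 pairs of FDQ cells (35.5% to 66%). It was 51.5% over 144 pairs of 1 EMR and 1 FDQ cell (33.5% to 71.5%). The mean of this share over pairs is set by how many cells of each muscle had each member on, which the rule limits. Nothing about the likeness of cells within a muscle is therefore read from these values.

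In levels summed over the kept cells, 60 members (30%) were at least 2-fold higher in EMR and 9 (4.5%) at least 2-fold higher in FDQ. Among 12000 IDs with a count in at least 5 kept cells, 17.8% were at least 2-fold higher in EMR and 13.1% at least 2-fold higher in FDQ. The rule used the shares of the same cells, so nothing is read from these counts. They also moved with 1 cell. E21 had the highest level of 49 of the 200 members and gave them 3.75% of its counts, against 0.144% to 1.73% in the other EMR cells. Without E21, 39 members were at least 2-fold higher in EMR and 15 in FDQ, against 15.7% and 14.2% of 11848 IDs. After E21, the cells E11 and F8 were highest for 24 members each.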

How the data were processed

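Single motor neurons of chicken embryos were measured by SMART-seq2, with 1 deposited column per cell. The values are raw read counts per Ensembl gene ID, as the deposited whole numbers with differing column sums show. Trimmomatic 0.39, STAR 2.5.2 and HTSeq 0.6.1, with the genome build GRCg6a, are listed per the submitters' processing notes without their order or role. For the annotation release, the strand setting and multi-mapped reads, nothing is given in the sources used here, so counts of overlapping, antisense or near-identical genes are uncertain. Every column matched 1 sample by its title.

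Members were chosen by the rule stated in the report, and correlations used log2(CPM + 1) minus the mean of the muscle over kept cells. Thinning drew 200000 counts per cell without replacement, with a fixed seed. Sums used a floor of 3 counts per muscle. The genes named are the first 2 by rank, the pairs with the highest and the lowest r, and the member with the highest mean r in each of the 3 largest groups, and 1 further ID as stated. The members, groups and lists were chosen with earlier results of these data known. Lists of markers and pathways could not be used without gene names. No doublets were called, since cells were picked singly. Each muscle is 1 sample, so no p-value is given. Grouping was tested on simulated counts in which some IDs were given the same on-off states, and ratios on counts simulated without spread between cells. These tests do not cover the influence of single cells. Alternatives changed the pseudocount, the correlation, the scaling (TMMwsp of edgeR 4.0.16), depth, thresholds and cells. Python 3.11.15, numpy 2.4.6, scipy 1.17.1 and pandas 2.3.3 were used.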

Additional observations from a re-analysis of the deposited data

Results flagged for a closer look

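In 20 sets of FDQ values (9 kept or 6 held-out cells), 9 had a cell far from the others by Dixon's criterion. Chance alone flags about 1 in 20 sets of normally distributed values. Values of on-off genes are not normally distributed, so a lone on cell meets the criterion easily. Among the kept cells, F8 stood apart with 1.88% of its counts in the members and with 114.2 CPM of ENSGALG00000013971, and F10 with 124.3 CPM of ENSGALG00000028627. Among the held-out cells, F23 stood apart with 10930 CPM summed over group 1, with 10060 CPM of ENSGALG00000035998, with 57.87 CPM of ENSGALG00000041641, with 52.71 CPM of ENSGALG00000013971 and with 1.146 CPM of ENSGALG00000001933. F24 stood apart with 322.4 CPM of ENSGALG00000005140. The sets of EMR cells were too large for the criterion.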

How the results depend on the processing

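Of 67 values under alternatives other than leaving out a cell, 58 stayed within the limits set (0.1 for r, 1.5 times for counts, 1 SD over cells for members on, the binomial interval for shares), 8 moved and 1 turned. Among the 58, the count of members past 2-fold with IDs counted in at least 1 kept cell repeats the main count (69 and 69) and could not move. For main r values near 0, such as 0.056 and 0.053, the limit of 0.1 is wide. Also wide are the SDs for members on, 42.6 in EMR cells and 26.2 in FDQ cells, and the interval for a share of 20 held-out cells. Staying within these limits therefore says little about stability. Taking out the number of genes detected moved the median r of member pairs to 0.029, the share of pairs at 0.5 or more to 2.88% and the members in groups of 5 or more to 36, against 63. It also turned the median r in held-out cells of pairs at 0.5 or more to −0.0185, against 0.0532, and that median was 0 with held-out cells of at least 2000 gene IDs. The share of off values with 0 counts was 87.2% with on at 1 CPM, 72.5% with on at 10 CPM and 100% after thinning, where 1 count is 5 CPM by construction. The rule with cells of at least 4000 or at least 7000 gene IDs kept 116 and 112 of the 200 members. Leaving out each kept cell in turn kept 138 to 179 of the 200 and gave a median r of 0.11 to 0.14, so the list depends on single cells. Of the 13 members of group 1, 12 or 13 were found in 1 group, counted by their IDs, under every alternative run on the groups, including each cell left out. That check and those without group 1, without E21 and without the 2 cells farthest in genes detected were chosen after seeing the data. No paired analysis was possible because replicate numbers in the labels stand for single cells picked from unnamed embryos. The cells under 5000 gene IDs limit what the held-out values can show.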
